A study of Mus musculus with 4 samples.

Results

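The heat shock proteins and J-domain chaperones of the mouse were followed in E14 cells, an embryonic stem cell line, after RNA interference against Npac. Members were the genes whose single symbol in the array annotation begins with Hsp (the lettered or numbered families Hspa, Hspb, Hspd, Hspe, Hsph and Hsp90), Hsf with a number, Dnaja, Dnajb, Dnajc or Bag with a number, together with the chaperonin subunits Cct2, Cct3, Cct4, Cct5, Cct7, Cct8 and Tcp1 and the co-chaperones Stip1, Ahsa1, Chordc1, Fkbp4 and Hspbp1. That gave 91 genes of the 18193 with a single symbol, read by 213 probe sets. There were 4 arrays, 2 from cells given control RNAi and 2 from cells given a short hairpin RNA against Npac by transfection. Selection with puromycin began 24 hours later in a plate format and cells were taken after 3 days of it, and the protocol describes 15% serum and 1000 units per ml of LIF, the cytokine that holds these cells undifferentiated. The sources used here do not describe the control hairpin. Nothing in the labels says that the replicates were separate cultures, so p-values measure the spread between these arrays, which may be technical.

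Heat shock proteins keep other proteins folded. HSP70 binds exposed stretches of a polypeptide and is switched by ATP: J-domain proteins (the Dnaja, Dnajb and Dnajc families) bring it clients and start ATP hydrolysis, while HSP110 and BAG proteins release the nucleotide. HSP90 completes the folding of kinases and steroid receptors with the help of co-chaperones, small heat shock proteins (Hspb) hold aggregating proteins, and the CCT and HSP60 chaperonins fold proteins inside a barrel. Heat shock factors bind heat shock elements in the promoters of many of these genes when unfolded protein builds up. Embryonic stem cells are known for high levels of several of these chaperones.

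Values are log2 signals after RMA, which evens out the arrays, so a difference is relative to the bulk of transcripts. Glyr1, the current name of Npac, stood at 11.30 and 11.32 on the control arrays and at 10.23 and 10.20 on the Npac RNAi arrays, 46.9% of the control level. Of 10 markers of embryonic stem cells, 8 fell and none rose, and their summed linear signal was 79011 to 79079 in control RNAi and 60680 to 61143 in Npac RNAi. Of 10 trophectoderm markers 9 rose, 7 of them at least 2-fold, and Elf5 had no call. Their sum was 10260 to 10384 in control RNAi and 43054 to 43590 in Npac RNAi. This sum mostly reflects the 2 brightest, the keratins Krt8 (12.07 to 14.13 on average) and Krt18 (11.96 to 14.10). Cdx2 (0.63) and Hand1 (0.37) rose less. Of 10 fibroblast markers 2 rose and 2 fell, with sums of 1056 to 1163 and 1135 to 1142. The fibroblast collagens Col3a1 (3.81 in control RNAi) and Col1a1 (5.59) lay in the dim range, where RMA gives no value of 0. The part of these marker shifts in the chaperone results was not tested, and in such bulk RNA fewer cells of a type and less RNA per cell cannot be told apart. The 24 poly-A spike-in probe sets, bacterial RNAs added before labelling, read 0.54 higher on the Npac RNAi arrays, so rises under 0.54 turn into falls when arrays are scaled on them.

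In Npac RNAi the HSP90 co-chaperones Fkbp4, Chordc1, Ahsa1 and Stip1 and the HSP70 partners Dnajc7 and Hsph1 were lower. The Hspb genes Hspb2, Hspb11 and Hspb8, the J-domain genes Dnajb3, Dnajb4, Dnajb5 and Dnajb14 and the co-chaperones Bag2, Bag3 and Bag5 were higher. The J-domain genes Dnajb8 (-0.21), Dnajb11 (-0.30) and Dnajb13 (-0.44) were called lower, but none of them at a limma adjusted p under 0.01. Of the genes just named as higher, Bag2 and Dnajb3 missed 0.01 as well. On their brightest probe sets the most abundant core chaperones moved by at most 1.28-fold, among them Hspa8, Hsp90aa1, Hspa5, Hspd1 and the CCT subunits. Some dimmer probe sets of abundant chaperones fell further, at -0.43 for Hspa8 and Cct3 and -1.15 for Hsp90b1. Over all 91 genes 20 were called higher and 24 lower at a limma adjusted p under 0.05, which is 22.0% and 26.4% of them. Of all genes 40.8% were called, 22.1% higher and 18.7% lower, so the share called higher was close to that background and the share called lower was above it, a difference that was not tested. The median log2 difference was -0.05 over the members and -0.04 over all genes. Among the 74 members at or above the median level of all genes (7.49), 18 (24.3%) were called higher and 20 (27.0%) lower, against 33.6% and 19.3% of all genes of that level, 52.9% of which were called in either direction. The groups did not overlap for 77 members (84.6%), against 74.2% of all genes.

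A rise of at least 1.5-fold was called for 9 of 91 members (9.89%), against 8.09% of all genes, and a fall of that size for 4 (4.40%), against 2.04%. A 2-fold rise was called for 2 members (2.20%, background 2.92%) and a 2-fold fall for 0 (background 0.258%). Of the 44 called members, 20 kept their call whichever 1 array was left out, 11 of them higher and 9 lower, and 17 lost it in each of the 4 cases. Calls were the same under all 19 alternative settings, or all that held the gene, for 10 members. These were Hspb2, Hspb11, Hspb8, Dnajb4 and Hsf5, all higher, and Dnajc7, Hsph1, Fkbp4, Chordc1 and Ahsa1, all lower. After centring the arrays on their medians 14 members were higher and 42 lower, against 15.6% and 39.4% of all genes (55.1% in either direction). With spike-in scaling 6 members were called higher and 77 lower (84.6%), against 4.98% and 81.9% of all genes (86.9% in either direction), and 10 of the 20 rises turned negative.

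**Figure D1:**
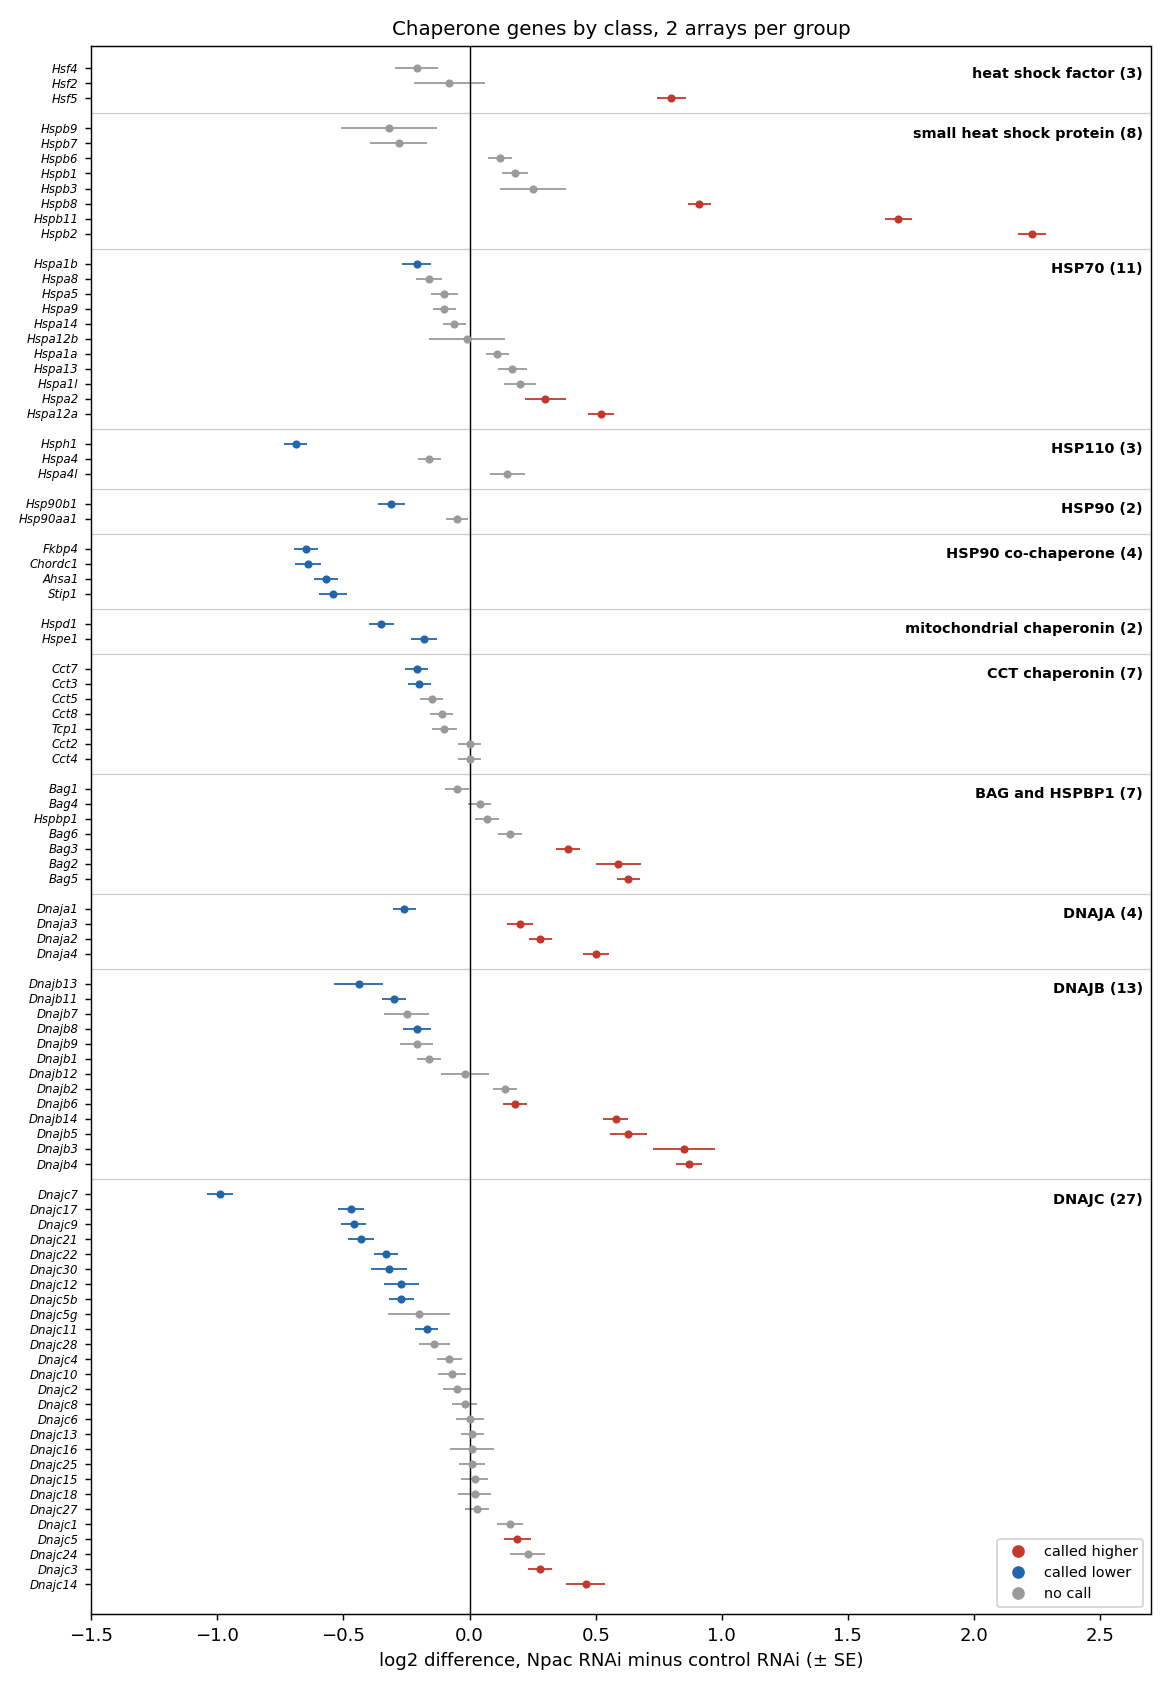
Log2 difference (Npac RNAi minus control RNAi, with limma's standard error as bars) of each of the 91 members on the horizontal axis, 1 gene per line, grouped by class with the number of genes in brackets; red and blue mark genes called higher and lower at an adjusted p under 0.05 and grey marks no call. The 4 HSP90 co-chaperones all lie between -0.65 and -0.54. The widest spread, from -0.32 to 2.23, is among the small heat shock proteins, a class set by gene name (Hspb) that includes Hspb11.

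The 4 HSP90 co-chaperones among the members, Fkbp4, Chordc1, Ahsa1 and Stip1, were all called lower, with a median log2 difference of -0.60. Of all genes 18.7% were called lower. Other co-chaperones of HSP90 or HSP70 outside the members went both ways. Fkbp5 (-0.95), Nudc (-0.56), Tomm34 (-0.44), St13 (-0.43), Stub1 (-0.23) and Ruvbl1 (-0.23) were called lower. Sugt1 (0.23), Ppp5c (0.23) and Pih1d1 (0.22) were called higher, and Cdc37 (-0.11), Cdc37l1 (-0.13), Aarsd1 (-0.12) and Unc45a (0.02) had no call. Fkbp4, an immunophilin that serves steroid receptors (FKBP52), read 11.43 and 11.41 in control RNAi and 10.75 and 10.79 in Npac RNAi, a difference of -0.65 (SE 0.0476, limma adjusted p = 0.00251). Chordc1, a zinc-binding co-chaperone, went from 11.91 and 11.88 to 11.22 and 11.29 (-0.64, SE 0.0521, limma adjusted p = 0.00314). Ahsa1, the activator of the HSP90 ATPase, went from 12.29 and 12.28 to 11.73 and 11.70 (-0.57, SE 0.0463, limma adjusted p = 0.00311). Stip1 is the adaptor (HOP) that passes clients from HSP70 to HSP90, and its values were 11.04 and 11.13 against 10.54 and 10.56 (-0.54, SE 0.0554, limma adjusted p = 0.00494). For each of these genes both Npac RNAi arrays lay below both control arrays, and the groups did not overlap for 74.2% of all genes. With any 1 array left out the 4 differences stayed between -0.67 and -0.49. Dimmer probe sets of Fkbp4 (-0.24) and Ahsa1 (-0.37) had no call, and another of Fkbp4 was called lower (-0.37). Averaging probe sets gave -0.42 for Fkbp4 and -0.47 for Ahsa1. The call on Stip1 was lost in a fit without moderated standard errors.

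The HSP90 genes themselves moved less. Hsp90aa1, the inducible cytosolic form, read 14.62 and 14.64 in control RNAi and 14.57 and 14.59 in Npac RNAi (-0.05, SE 0.0453, limma adjusted p = 0.431), and none of its 5 probe sets was called. Hsp90b1, the form of the endoplasmic reticulum (GRP94), went from 12.90 and 12.82 to 12.55 and 12.55 (-0.31, SE 0.0522, limma adjusted p = 0.0144). The call on Hsp90b1 was lost whichever array was left out (adjusted p from 0.0511 to 0.0703). Its other probe set showed a larger fall, of -1.15, from 12.71 and 12.68 to 11.55 and 11.53, so the size of its change depends on the probe set.

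On the brightest probe sets the largest fall among the members was in Dnajc7, a J-domain protein whose tetratricopeptide (TPR) repeats bind both HSP70 and HSP90. It stood at 11.51 and 11.43 on the control arrays and at 10.48 and 10.49 on the Npac RNAi arrays, a 1.98-fold fall (-0.99, SE 0.0522, limma adjusted p = 0.00143). TPR repeats are also the part by which Stip1 and Fkbp4 hold the tails of these chaperones. Other cytosolic co-chaperones with TPR repeats, named here after their values were seen and so no support for a pattern, went both ways. Those called lower were Fkbp5 (-0.95, SE 0.0655), which is the immunophilin FKBP51, Tomm34 (-0.44), the HSP70-interacting protein gene St13 (-0.43) and the ubiquitin ligase gene Stub1 (-0.23). The phosphatase gene Ppp5c was called higher (0.23), and Rpap3 (-0.09), Sgta (-0.09) and the myosin chaperone gene Unc45a (0.02) had no call.

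Among the HSP110 genes, nucleotide exchange factors of HSP70, Hsph1 fell on both of its probe sets. It read 12.01 and 12.02 in control RNAi and 11.32 and 11.33 in Npac RNAi (-0.69, SE 0.0453, limma adjusted p = 0.002). Hspa4 had no call on its brightest probe set, at 13.39 and 13.39 against 13.24 and 13.22 (-0.16, limma adjusted p = 0.0535). Its other 3 probe sets were called lower when all probe sets were tested together, the lowest at -0.88. Hspa4l, the third of the family, was at 0.15 with no call, and 2 of its 5 probe sets were called higher, at 0.76 and 0.67. The HSP110 genes thus differed in sign, and the size of the difference varied between probe sets of one gene.

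**Figure D2:**
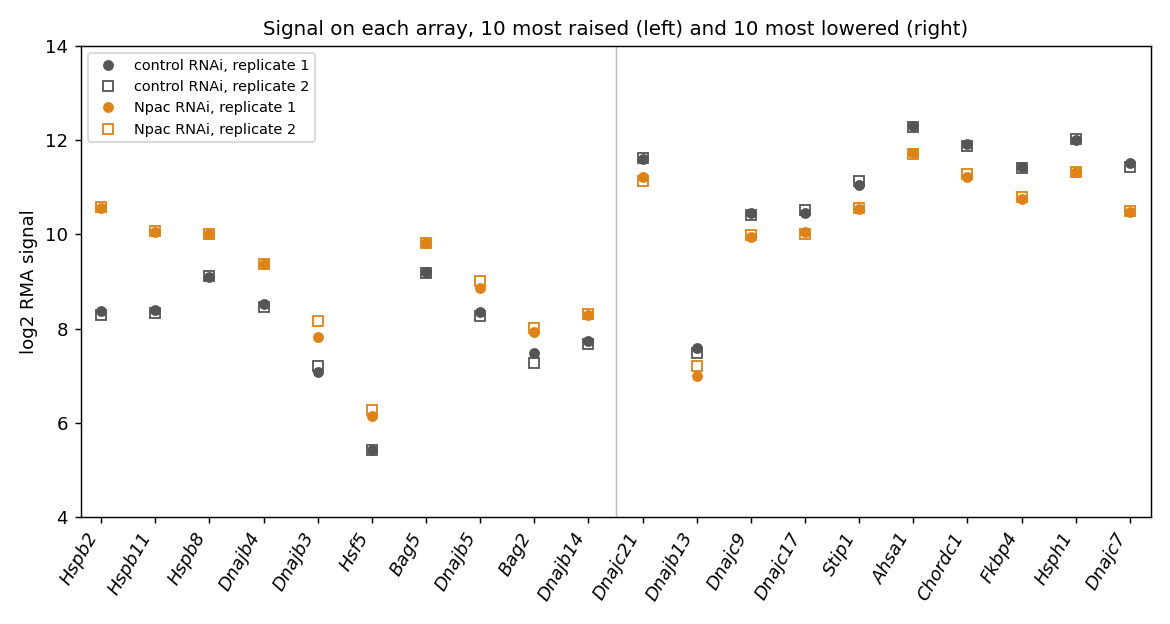
Log2 RMA signal (vertical axis) on each of the 4 arrays for the 10 most raised (left, by size from the left) and the 10 most lowered members (right, the largest fall at the far right); grey marks control RNAi and orange Npac RNAi, circles replicate 1 and open squares replicate 2. In every gene shown the 2 arrays of a group lie closer to each other than the groups do, and Hspb2 has the widest gap, from 8.28 and 8.38 to 10.55 and 10.58.

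Promoter windows (250 bases before to 50 after the start of the gene, RefSeq, GRCm38.p6) were at hand for 75 of the 91 members and were searched on both strands for heat shock elements, written here as 3 alternating units, GAA and TTC, with any 2 bases between units. Such a match was in 0.603% of all 32851 windows and in 7 of the 95 windows of members (7.37%). The 5 members with a match were Hsph1, Chordc1, Hspd1, Hspe1 and Dnajb6, of which 4 were called lower and 1, Dnajb6, higher. A gene with several starts can have several windows, and Hspd1 and Hspe1, which are neighbours with overlapping annotations, share 1 element. Of 83 other tested genes with such a match, 21 were higher and 7 lower, with a median of -0.01. The windows of Hsph1, Chordc1 and Hspd1 are shown because these genes fell, with the matches in capitals. That of Hsph1 is chr5:149636287-149636586, minus strand, with the match beginning at base 37 after the start. That of Chordc1 is chr9:18292017-18292316, plus strand, with 3 overlapping matches that span the start. That of Hspd1 is chr1:55087883-55088182, minus strand, with 2 overlapping matches.
Hsph1: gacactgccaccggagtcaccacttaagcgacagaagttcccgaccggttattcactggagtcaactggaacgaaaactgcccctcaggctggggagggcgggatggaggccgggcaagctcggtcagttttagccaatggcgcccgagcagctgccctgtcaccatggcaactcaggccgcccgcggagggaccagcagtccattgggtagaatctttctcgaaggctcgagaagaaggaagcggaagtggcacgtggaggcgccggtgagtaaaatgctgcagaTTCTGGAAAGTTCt
Chordc1: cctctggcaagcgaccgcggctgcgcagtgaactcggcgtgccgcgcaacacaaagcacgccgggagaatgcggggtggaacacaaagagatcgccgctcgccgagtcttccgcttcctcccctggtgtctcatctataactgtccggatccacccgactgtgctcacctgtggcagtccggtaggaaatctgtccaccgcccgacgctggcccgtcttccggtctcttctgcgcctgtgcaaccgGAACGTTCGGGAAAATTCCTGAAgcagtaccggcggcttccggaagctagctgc
Hspd1: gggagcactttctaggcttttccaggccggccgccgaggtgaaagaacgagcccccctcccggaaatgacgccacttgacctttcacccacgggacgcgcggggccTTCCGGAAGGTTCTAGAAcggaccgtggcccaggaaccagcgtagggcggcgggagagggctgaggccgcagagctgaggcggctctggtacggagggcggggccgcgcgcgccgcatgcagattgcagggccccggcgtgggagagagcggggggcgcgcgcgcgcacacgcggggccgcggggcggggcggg
The shorter form with 2 units, GAANNTTC or TTCNNGAA, which every such element contains, was in 15.1% of all windows and in 25.3% of the windows of members. The 22 members with it divided into 6 higher, 7 lower and 9 with no call. Of 2149 other tested genes with it, 442 were higher and 408 lower, with a median of -0.06. The shares of all genes were 22.1% higher and 18.7% lower, and no difference from them was tested. The windows were also searched for TGACGTCA, TGANTCA and CACGTG, found in 1.05%, 3.16% and 8.42% of the members' windows and in 1.79%, 7.81% and 7.15% of all windows. A match describes letters in a window and does not show binding.

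The largest rises were among the genes named as small heat shock proteins (Hspb). Of 8 measured, 3 were higher (37.5%) and 0 lower, against 22.1% and 18.7% of all genes. Their median was 0.21, and the 3 include Hspb11, which belongs to the class by name only. Hspb2, a small heat shock protein best known from muscle, rose 4.70-fold, from 8.38 and 8.28 to 10.55 and 10.58 (2.23, SE 0.0572, limma adjusted p = 0.000704). In the RefSeq annotation Hspb2 lies inside the interval given for its neighbour Cryab, another small heat shock protein gene (alpha-B-crystallin), which rose too (9.30 to 11.81 on average, 2.51, SE 0.0587). Probes for such overlapping genes may read each other's transcripts, so these values are not independent readings. Hspb11, which despite its name encodes IFT25, a subunit of the machinery that carries cargo along cilia, went from 8.40 and 8.32 to 10.04 and 10.08, or 3.25-fold (1.70, SE 0.0542). Its other probe set was dim, at 3.32 on average, and had no call, and averaging both gave 0.77.

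Hspb8, which acts with Bag3 in the removal of misfolded protein by autophagy, rose from 9.09 and 9.11 to 10 and 10.01 (0.91, SE 0.0456, limma adjusted p = 0.00132), and all 3 of its probe sets were called higher. Hspb1, known as HSP25 or HSP27 and tied to actin filaments, was at 14.14 and 14.20 in control RNAi and at 14.36 and 14.34 in Npac RNAi. The groups of Hspb1 did not overlap, but it missed the threshold (0.18, SE 0.051, limma adjusted p = 0.0516) and was called lower with spike-in scaling (-0.36). The other 4, Hspb3, Hspb6, Hspb7 and Hspb9, known from muscle, heart or testis, had means below the median level of all genes. They had no call, with differences between -0.32 and 0.25, but a dimmer probe set of Hspb7 was called lower (-0.30).

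HSP70 genes changed little on their brightest probe sets. Of 11 measured, 2 were higher (18.2%), 1 lower (9.09%) and 8 had no call, with a median of -0.01. The shares of all genes were 22.1% higher and 18.7% lower. The constitutive HSP70 gene Hspa8 read 14.80 and 14.86 against 14.66 and 14.69 (-0.16, limma adjusted p = 0.0699), and Hspa5, the HSP70 of the endoplasmic reticulum (BiP), 13.56 and 13.48 against 13.44 and 13.40 (-0.10, limma adjusted p = 0.192). The mitochondrial HSP70 gene Hspa9 was at 12.57 and 12.59 against 12.48 and 12.48 (-0.10, limma adjusted p = 0.152). All 3 lay lower on both Npac RNAi arrays without passing the test, and the groups did not overlap for 74.2% of all genes. Dimmer probe sets of each were called lower, 1 for Hspa8 (-0.43), 1 for Hspa5 (-0.25) and 2 for Hspa9 (-0.36 and -0.40).

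The heat-inducible pair Hspa1a and Hspa1b gave opposite signs. Hspa1a was at 10.20 and 10.21 in control RNAi and at 10.30 and 10.33 in Npac RNAi (0.11, limma adjusted p = 0.131), and Hspa1b at 11.90 and 11.85 against 11.62 and 11.71 (-0.21, limma adjusted p = 0.0447). The pair are near-identical copies, so probes may bind both, and the call on Hspa1b was lost whichever array was left out (adjusted p from 0.0881 to 0.157). The members that rose were Hspa12a, a distant relative of HSP70, from 6.60 and 6.57 to 7.14 and 7.07 (0.52, SE 0.052), and Hspa2, best known from male germ cells, from 8.24 and 8.07 to 8.40 and 8.50 (0.30, SE 0.0811, limma adjusted p = 0.0473). Hspa12a lay below the median level of all genes, and the call on Hspa2 was lost whichever array was left out (adjusted p from 0.0571 to 0.173). With spike-in scaling Hspa12a was -0.02 and Hspa2 -0.24.

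Of the heat shock factors, transcription factors of the response, 3 were measured. Hsf2 read 7.90 and 7.85 in control RNAi and 7.60 and 7.99 in Npac RNAi, so its groups overlapped (-0.08, limma adjusted p = 0.674). Hsf4, of the lens, was dim and had no call (-0.21). Hsf5, a factor of male germ cells, rose from 5.41 and 5.41 to 6.15 and 6.26 (0.80, SE 0.0577, limma adjusted p = 0.00243), a 1.74-fold change at a level below the median of all genes. Hsf1 and Hsp90ab1 are not analysed here.

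Of 44 J-domain genes measured, 11 were higher (25%), 13 lower (29.5%) and 20 had no call, against 22.1% and 18.7% of all genes, with a median of -0.02. In the Dnaja family, whose proteins share the layout of bacterial DnaJ, 3 of 4 were higher and 1 lower. Of 13 Dnajb genes 5 were higher and 3 lower, and of 27 Dnajc genes, which share little beyond the J domain, 3 were higher and 9 lower. Whether the families differ was not tested, and 3 of the 4 Dnaja calls were lost whichever array was left out.

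Within the Dnajb family the rises were the larger. Dnajb4, a close relative of the heat-inducible Dnajb1, rose on all 3 of its probe sets, on the brightest from 8.53 and 8.45 to 9.36 and 9.36 (0.87, SE 0.0526, limma adjusted p = 0.00177). Dnajb3, known from testis, went from 7.08 and 7.20 to 7.83 and 8.15 (0.85, SE 0.123), and it was no longer called when either control array was left out (adjusted p up to 0.0613). Dnajb5, another relative of Dnajb1, went from 8.35 and 8.26 to 8.86 and 9 (0.63, SE 0.0734), but its other 2 probe sets were near 0 (0.03 and -0.09). Dnajb14, a protein of the endoplasmic reticulum membrane, went from 7.74 and 7.68 to 8.28 and 8.30 (0.58, SE 0.0496) and by 1.26 on its dimmer probe set. Dnajb1 itself, the main partner of inducible HSP70, was at 11.56 and 11.52 against 11.37 and 11.38 (-0.16, limma adjusted p = 0.0551), and its other probe set was called lower (-0.28). Dnajb13, a protein of the sperm tail, was the largest fall of the family, from 7.59 and 7.48 to 6.99 and 7.21 (-0.44, SE 0.0977), at a mean level below the median, and its call was lost without control array 1, control array 2 or Npac array 1 (adjusted p up to 0.124). With spike-in scaling Dnajb4 (0.33) and Dnajb3 (0.31) were still called higher, and Dnajb5 (0.09) and Dnajb14 (0.04) were not.

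In the Dnaja family the abundant cytosolic Dnaja1 and Dnaja2 moved apart. Dnaja1 read 13.40 and 13.40 in control RNAi and 13.12 and 13.14 in Npac RNAi (-0.26, SE 0.0456, limma adjusted p = 0.0156), and all 3 of its probe sets were called lower, the largest fall being -0.60. Dnaja2 read 12.93 and 12.93 against 13.20 and 13.22 (0.28, SE 0.0456, limma adjusted p = 0.0133). Of the 4 probe sets of Dnaja2, 2 were called higher and 1 lower (-0.25), so its direction depends on the probe set. Dnaja4 rose from 7.59 and 7.52 to 8.08 and 8.04 (0.50, SE 0.0522), and the mitochondrial Dnaja3 by 0.20 (limma adjusted p = 0.0404), with another probe set called lower (-0.31). The calls on Dnaja1, Dnaja2 and Dnaja3 were lost whichever array was left out (adjusted p up to 0.0757, 0.0749 and 0.136), and with spike-in scaling Dnaja2 (-0.26), Dnaja3 (-0.33) and Dnaja4 (-0.04) were negative.

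After Dnajc7, the Dnajc genes with the largest called falls were Dnajc17, Dnajc9, Dnajc21 and Dnajc22. Dnajc17, which is found with splicing factors, went from 10.46 and 10.52 to 10.05 and 10 (-0.47, SE 0.0521, limma adjusted p = 0.00571). Dnajc9, a chaperone of histones, went from 10.45 and 10.41 to 9.95 and 9.99 (-0.46, SE 0.0486, limma adjusted p = 0.00521). Dnajc21, which takes part in the maturation of the large ribosomal subunit, went from 11.60 and 11.61 to 11.21 and 11.14 (-0.43, SE 0.0511, limma adjusted p = 0.00655). Averaging probe sets gave -0.26 for Dnajc17 and -0.24 for Dnajc21. The next brightest probe set of Dnajc21 had no call, at 10.81 and 10.84 against 10.76 and 10.78 (-0.05). Of the 5 probe sets of Dnajc21, 2 were called lower and 0 higher. Dnajc22 was at 7.39 and 7.36 against 7.07 and 7.03 (-0.33, SE 0.0475), and it was no longer called when control array 1, control array 2 or Npac array 2 was left out (adjusted p up to 0.0615). Dnajc8 (-0.02), also found with splicing factors, and the ribosome-bound Dnajc2 (-0.05) with its partner Hspa14 (-0.06) had no call.

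Smaller calls in this family had less support. Dnajc30 (-0.32), Dnajc12 (-0.27), Dnajc5b (-0.27) and Dnajc11 (-0.17) were called lower, and Dnajc14 (0.46), Dnajc3 (0.28) and Dnajc5 (0.19), the cysteine string protein of secretory vesicles, higher. Each of these 7 calls was lost without at least 3 of the 4 arrays. The adjusted p then reached 0.107 for Dnajc30, 0.131 for Dnajc12, 0.09 for Dnajc5b, 0.171 for Dnajc11, 0.0718 for Dnajc14, 0.0787 for Dnajc3 and 0.193 for Dnajc5. Dnajc30 was still called without control array 2 and Dnajc14 without Npac array 1. Dnajc6, which uncoats clathrin vesicles, and the endosomal Dnajc13 had no call, at -0.00 and 0.01. The remaining Dnajb calls were Dnajb11 (-0.30), Dnajb8 (-0.21) and Dnajb6 (0.18), also lost whichever array was left out (adjusted p up to 0.064, 0.177 and 0.159), and Dnajb6, a suppressor of protein aggregates, was called lower on 2 of its other probe sets (-0.25 and -0.27).

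BAG proteins, which release nucleotide from HSP70 and link it to other pathways, rose or had no call. Of 7 genes with Hspbp1, an exchange factor of another family, 3 were higher (42.9%) and 0 lower. Their median was 0.16, and of all genes 22.1% were called higher and 18.7% lower. Bag5 went from 9.21 and 9.18 to 9.82 and 9.82 (0.63, SE 0.0463, limma adjusted p = 0.00253), but its other probe set was at -0.16 and averaging both gave 0.23. Bag2, an inhibitor of the ubiquitin ligase CHIP, went from 7.48 and 7.27 to 7.92 and 8.01 (0.59, SE 0.0895, limma adjusted p = 0.0113), and its call was lost without Npac array 2 (adjusted p = 0.0571). Bag3, the partner of Hspb8, went from 9.66 and 9.61 to 10.04 and 10.02 (0.39, SE 0.0489, limma adjusted p = 0.00726). Bag1 (-0.05), Bag4 (0.04), Bag6 (0.16) and Hspbp1 (0.07) had no call. With spike-in scaling none of the family was called higher: Bag5 was at 0.09, Bag2 at 0.05 and Bag3 at -0.15.

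Of 7 member subunits of CCT, the barrel that folds actin and tubulin, 2 were called lower (28.6%) and 0 higher. Their median was -0.11, and of all genes 18.7% were called lower and 22.1% higher. Cct7 was at 13.40 and 13.38 against 13.19 and 13.17 (-0.21, limma adjusted p = 0.0282) and Cct3 at 13.59 and 13.57 against 13.38 and 13.37 (-0.20, limma adjusted p = 0.03). Of the 7 probe sets of Cct3, 5 were called lower. Both calls were lost whichever array was left out (adjusted p up to 0.129 and 0.131). The others had no call: Cct5 (-0.15), Cct8 (-0.11) and Tcp1 (-0.10) were below 0, and Cct2, at 13.59 and 13.56 in both groups, and Cct4 (-0.00) were level. Cct6a, a measured subunit outside the members, had no call (-0.13). On other probe sets the values ranged more widely, down to -0.43 for Cct3 and up to 0.20 for Cct4.

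In mitochondria the HSP60 gene Hspd1 fell from 13.77 and 13.71 to 13.40 and 13.39 (-0.35, SE 0.0494, limma adjusted p = 0.00949). Its lid, the HSP10 gene Hspe1, fell from 13.39 and 13.41 to 13.19 and 13.25 (-0.18, SE 0.0504, limma adjusted p = 0.0499). The call on Hspd1 was lost without control array 1 or Npac array 2 (adjusted p up to 0.0564) and that on Hspe1 whichever array was left out (up to 0.18). Of the 7 members counted as mitochondrial 4 were lower (57.1%) and 1 higher (14.3%), with a median of -0.17. This count may miss others, so it gives no direction for the whole compartment. Of all genes 18.7% were lower and 22.1% higher, and the difference was not tested. None of these mitochondrial calls was kept in every fit with 1 array left out.

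The count for the endoplasmic reticulum took in 8 members and left out its membrane protein Dnajb14, which was called higher (0.58). It may miss others, so it gives no direction for the whole compartment. Of these 8 members 2 were lower and 1 higher, with a median of -0.09. The 2 lower were Hsp90b1 and Dnajb11, a J-domain partner of BiP (-0.30, SE 0.0467, limma adjusted p = 0.012), and the higher one was Dnajc3, the protein p58IPK (0.28, SE 0.0466, limma adjusted p = 0.0143), which read 10.30 and 10.32 against 10.58 and 10.60. Dnajb9, which returns misfolded proteins for degradation, was at 10.80 and 10.66 against 10.50 and 10.54 (-0.21, limma adjusted p = 0.0666). Hspa13 had probe sets called in opposite directions (0.27 and -0.26), while its brightest was at 0.17 with no call. Dnajc10 had no call on its brightest probe set (-0.07), but 2 of its 3 probe sets were called higher (0.21 and 0.24) and 0 lower. The ER stress response element, CCAAT and CCACG with any 9 bases between them, on either strand, was found in 3 windows of members, those of Hspa5, Hsp90b1 and Dnajc3, and in 0.119% of all windows. These 3 genes went different ways, and the windows of Hsp90b1 (chr10:86705395-86705694, minus strand) and Dnajc3 (chr14:118937682-118937981, plus strand) are shown for that contrast, with the element in capitals.
Hsp90b1: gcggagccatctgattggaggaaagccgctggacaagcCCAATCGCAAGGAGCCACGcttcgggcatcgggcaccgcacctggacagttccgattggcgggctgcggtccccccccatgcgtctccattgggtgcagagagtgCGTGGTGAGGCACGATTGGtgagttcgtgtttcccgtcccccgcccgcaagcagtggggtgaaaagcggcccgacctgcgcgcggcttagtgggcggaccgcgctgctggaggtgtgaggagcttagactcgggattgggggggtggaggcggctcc
Dnajc3: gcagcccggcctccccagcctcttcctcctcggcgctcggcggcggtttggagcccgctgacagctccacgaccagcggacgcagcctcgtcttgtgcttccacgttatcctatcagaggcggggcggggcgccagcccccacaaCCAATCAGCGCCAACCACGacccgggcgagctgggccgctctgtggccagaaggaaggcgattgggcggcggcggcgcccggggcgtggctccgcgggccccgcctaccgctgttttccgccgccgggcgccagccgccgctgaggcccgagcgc
Of 17 other tested genes with the element 2 were higher and 4 lower.

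**Figure D3:**
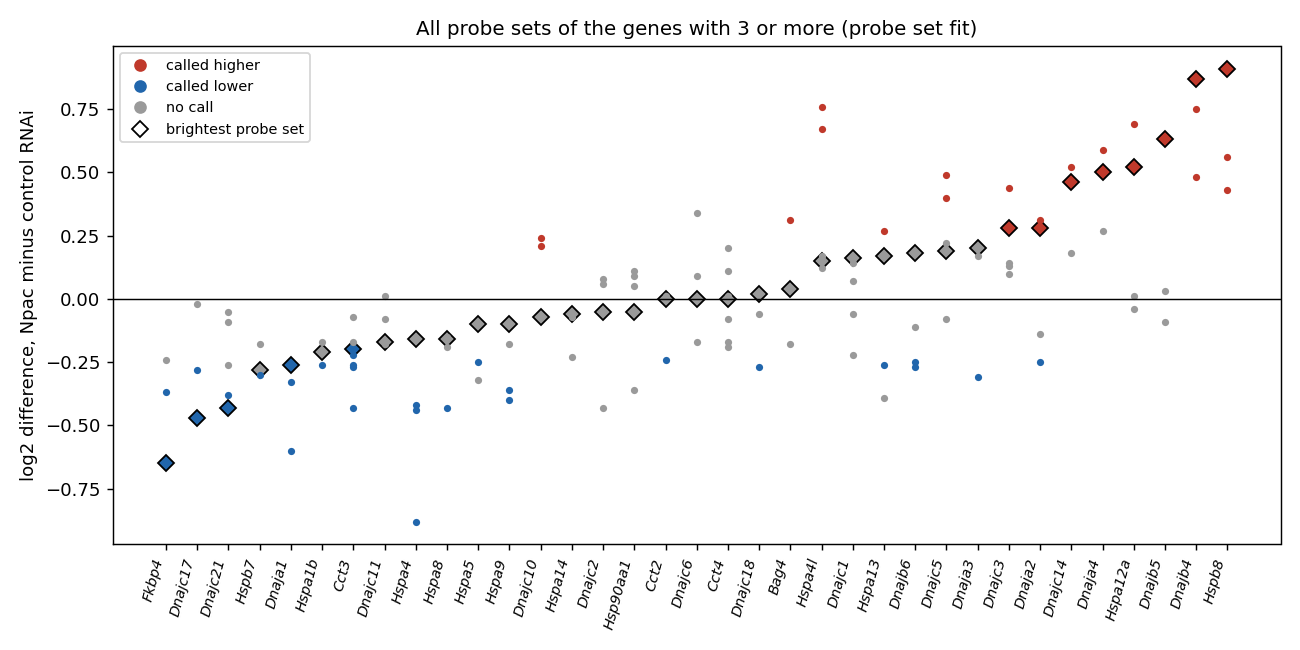
Log2 difference (vertical axis) of every probe set of the 35 members that have 3 or more, with the brightest probe set as a diamond and the others as dots; colours are calls of a fit over all 34945 probe sets with 1 symbol, which can differ from the fit over genes for small differences. Probe sets of Dnajb4 and Hspb8 all lie above 0, while those of Dnaja2 and Hspa13 were called on both sides of it.

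Probe sets of one gene did not always move alike, as the plot of all probe sets shows. Of the 91 members 36 had 1 probe set and 55 several. In a fit over all 34945 probe sets with 1 symbol, of which 33.4% were called, 36 of the members' 213 were higher and 52 lower. Called probe sets went both ways for 2 members, Dnaja2 and Hspa13. For 9 members the brightest probe set carries a suffix by which the manufacturer marks probes that match several transcripts, among them Hspa8, Cct3, Cct4 and Hspe1.

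Other genes of protein folding and degradation gave a background for the chaperones. Their counts stand beside 22.1% of all genes called higher and 18.7% called lower, and no difference from these shares was tested. Of 19 further co-chaperones and chaperones measured of 21 listed, a list that also holds Cryab, the collagen chaperone gene Serpinh1 and the chaperonin subunit Cct6a, 5 were higher and 6 lower, with a median of -0.11. Next to Cryab, the largest rise was that of Serpinh1, which encodes HSP47 (0.86, SE 0.0506), and the largest falls were those of Fkbp5 and Nudc (-0.56, SE 0.0453). Of 6 prefoldin subunits, which deliver actin and tubulin to CCT, Pfdn2 (-0.56, SE 0.0475) and Pfdn6 (-0.22) fell and Pfdn4 rose (0.18). Of 31 proteasome subunits measured of 32 listed, 9 were lower (29.0%) and 0 higher, with a median of -0.12. The largest of these falls were in Psmd13 (-0.73, SE 0.051) and Psmd3 (-0.45). Of 16 mitochondrial chaperones and proteases 1 was higher, Clpx (0.31), and 3 were lower, led by the mitochondrial HSP90 gene Trap1 (-0.34) and Timm44 (-0.26).

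Among 23 genes of folding in the endoplasmic reticulum and of the unfolded protein response, 5 were higher (21.7%) and 8 lower (34.8%). Their median was -0.02, and of all genes 22.1% were higher and 18.7% lower. The lowest were Sdf2l1 (-0.57, SE 0.0465), a partner of BiP, and the disulfide isomerase gene Pdia3 (-0.44, SE 0.0467). The highest were Syvn1 (0.50, SE 0.0459), the ubiquitin ligase of ER-associated degradation, and Ddit3 (0.49, SE 0.048), the stress factor CHOP. The other called genes were Edem1 (0.42), Sel1l (0.40) and Derl2 (0.27), higher, and Pdia6 (-0.32), Pdia4 (-0.31), Manf (-0.28), Herpud1 (-0.27), Sil1 (-0.23) and Creld2 (-0.19), lower. The sensors and factors Xbp1, Atf6, Atf4, Ern1 and Eif2ak3 had no call, with differences between 0.03 and 0.18. With spike-in scaling 0 of the 23 genes were higher and 19 lower (82.6%), close to the 81.9% of all genes.

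**Figure D4:**
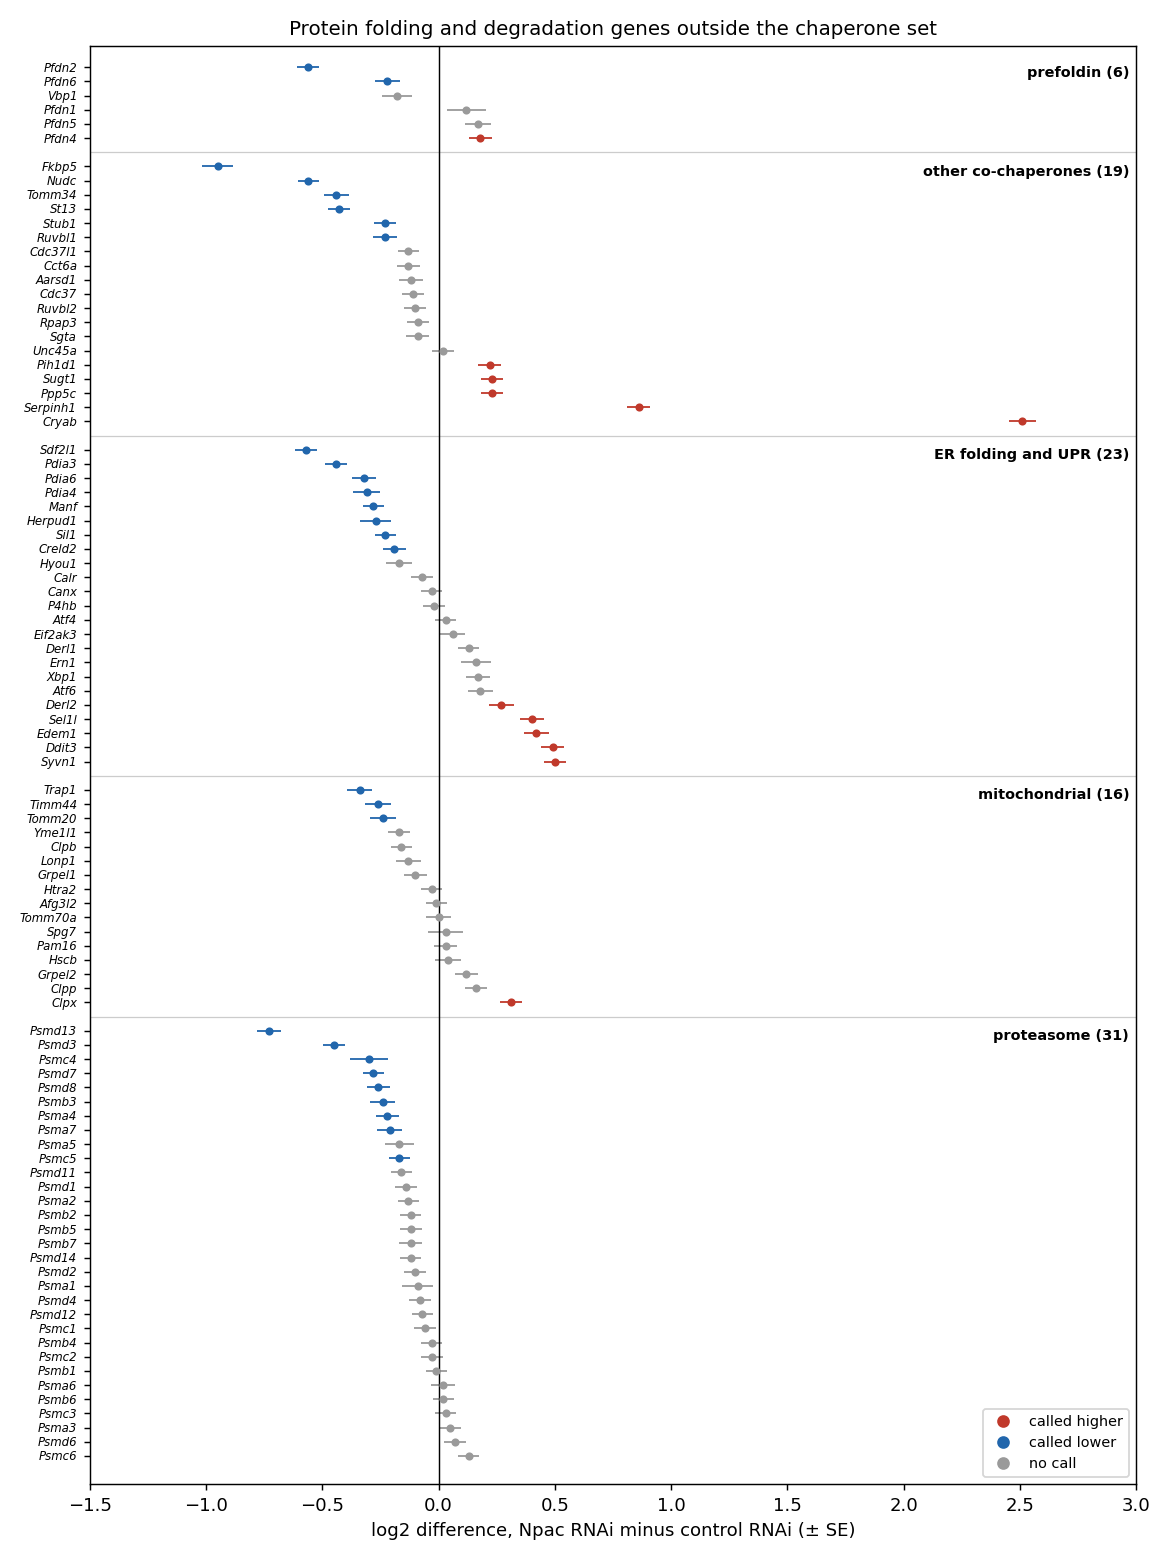
Log2 difference (Npac RNAi minus control RNAi, horizontal axis, with limma's standard error as bars) of genes of 5 related lists that are not members, 1 gene per line; red and blue mark calls at an adjusted p under 0.05 and grey no call. Cryab stands alone at 2.51, and in the proteasome list all called subunits lie below 0.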

How the data were processed

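Total RNA of 4 samples was read on 1-colour Affymetrix arrays and grouped by sample title. The deposited table holds log2 signals, 1 per probe set and array, and the submitters' processing notes name RMA without a version. The log base was inferred from the values (2.78 to 15.05, array medians 6.41 to 6.45). Of 45101 probe sets, 64 controls, 932 with several symbols and 9160 unnamed ones were left out of gene tests, among them 3 that list a member-like symbol beside another. Symbols of 34945 were updated through Entrez identifiers to RefSeq GRCm38.p6 (34741 matched). A gene's value is that of its brightest probe set (mean of all arrays), giving 18193 genes, with no filter.

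Differences were fitted in R 4.3.3 by limma 3.58.1 (functions lmFit, eBayes; group as the only term, 2 residual and 2.28 prior degrees of freedom), Benjamini-Hochberg adjusted over all genes, called under 0.05. n is 2 arrays per group throughout, standard errors are moderated, and the number of arrays limits the precision. The fitting code was tested on simulated data with independent noise on each array. The replicates here may be technical, so that test cannot show whether these calls are right. Named in full were the 12 largest called rises and falls, a fixed list of core chaperones, members with probe sets called in opposite directions and up to 2 genes per direction of each related list; others were named after their values were seen. Members and lists were chosen with earlier results of these data known. Alternatives were other empirical Bayes forms, normalizations, filters, probe set choices and thresholds, a replicate block and each array left out.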

Additional observations from a re-analysis of the deposited data

How the results depend on the processing

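Counts of members called higher and lower (20 and 24) moved by over 1.5 times with the following settings. Spike-in scaling gave 6 and 77, an adjusted p under 0.01 gave 11 and 10, and a tested minimum fold of 1.2 gave 11 and 6. Without moderation 12 were higher. Centring on the median of the gene values, a shift of -0.14, gave 42 lower. Leaving out each array in turn gave 12 to 14 higher and 10 to 13 lower. A test on 3 arrays has fewer degrees of freedom, so a lost call need not mean dependence on that array. The replicate numbers gave no sign of pairing (correlation of same-numbered deviations -0.166), and with the replicate number as a block 14 were higher and 12 lower. A crossed block, added after that correlation was seen, gave 18 and 22. The other settings kept both counts within 1.5 times.

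Some named members changed sign. With spike-in scaling these were Bag3 (-0.15), Dnaja2 (-0.26), Dnaja4 (-0.04), Dnajc3 (-0.26), Hspa12a (-0.02), Hspa13 (-0.37), Hspa1a (-0.43), Hspa2 (-0.24), Hspb1 (-0.36) and Hspbp1 (-0.47), and, among calls named after their values were seen, Dnaja3 (-0.33), Dnajb6 (-0.36), Dnajc5 (-0.35) and Dnajc14 (-0.08). Centring turned Hspa1a (-0.03) and Hspbp1 (-0.07), quantile normalization Hspbp1 (-0.05) and Cct4 (0.02), and cyclic loess Cct2 (0.06), Cct4 (0.06) and Hsp90aa1 (0.05). Averaging probe sets turned Cct8 (0.02), Hsf2 (0.08), Hspa13 (-0.05) and Dnajb6 (-0.11), and the probe set with the largest interquartile range turned Cct4 (0.20), Cct8 (0.16), Hsf2 (0.23), Hspa13 (-0.39), Dnaja3 (-0.31) and Dnajb6 (-0.27). Leaving out each array in turn, Cct2 ranged from -0.02 to 0.01, Cct4 from -0.01 to 0.01 and Hsf2 from -0.28 to 0.11. The cause of these changes was not tested.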
